A study of Rattus norvegicus with 30 samples.

Results

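Gene expression was compared between Glenn and sham surgery in lung CD31-positive cells of rats kept on a diet deficient in vitamin A. The comparison takes the 10 libraries whose labels give that diet, 5 from animals after Glenn surgery and 5 from animals after a sham operation, out of the 30 libraries of the series. The other 20 libraries, from animals on a control diet or a diet with excess vitamin A, entered only the joint fit, with its estimates of the spread and of the library series, and a test of whether the response differed by diet. All animals were wild-type rats sampled 3 weeks after the operation, and cells carrying CD31, a surface protein of endothelial cells, were sorted with microbeads. The labels give no age or strain, and nothing in them says whether each library came from its own animal, so p-values measure the spread between these libraries.

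In the Glenn operation a caval vein is joined to a pulmonary artery, and the lung then receives venous blood that has not passed the liver. The liver makes BMP9, a ligand that binds the receptor ALK1 (gene Acvrl1) and the co-receptor endoglin (Eng) on endothelial cells and switches on genes such as Id1 and Smad6 through SMAD1, SMAD5 and SMAD9. Loss of this signal is a known cause of arteriovenous malformations, and such malformations form in the lung after Glenn surgery. Vitamin A is stored in the liver and gives rise to retinoic acid, a ligand of nuclear receptors. The comparison asks what the operation changed in animals short of vitamin A.

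The 10 libraries held 22.03 to 42.5 M estimated counts (median 37.99 M) and 17364 to 18275 genes with a count. Library names fall in a lower and an upper range of numbers, here called series A (lower numbers) and series B (upper numbers). Series A holds 2 sham and 3 Glenn libraries and series B 3 sham and 2 Glenn libraries, and each group has 2 libraries from males and 3 from females, read from a Y-linked gene. The transplantation antigen gene RT1-CE16 followed the series exactly, at 21.9 to 40.7 CPM in series A and 452 to 949 CPM in series B, so series and RT1-CE16 level cannot be told apart in these groups. CPM is a count divided by the TMM-adjusted library total in M. The first principal component of the 10 libraries held 54.2% of the variance and split sham (-32.0 to -26.4) from Glenn (23.8 to 36.9), and the second held 11.05% and split series A (7.93 to 18.8) from series B (-16.7 to -6.27). The endothelial genes Pecam1, which encodes CD31, and Cdh5, the cadherin of endothelial junctions, were abundant in both groups: Pecam1 at 1341 ± 333 CPM in the sham and 1111 ± 96.1 CPM in the Glenn libraries and Cdh5 at 2387 ± 125 CPM in the sham and 2089 ± 103 CPM in the Glenn libraries (mean ± SD, n = 5 each). Neither passed the test (log2 change -0.21 and -0.19, adjusted p 0.251 and 0.149), but Pecam1 fell in series B alone (log2 change -0.598, adjusted p 0.0221) and had a change of 0.23 in series A alone. The 17 genes of a general endothelial list summed to less in every Glenn library (10155 to 11014 CPM) than in any sham library (12128 to 13807 CPM). Ptprc, the CD45 gene of all leukocytes, stood at 3.23 ± 2.04 CPM in the sham and 2.71 ± 1.85 CPM in the Glenn libraries (SD, n = 5 each). Type 2 alveolar transcripts were present throughout, and Sftpc, which encodes surfactant protein C, reached 31968 CPM in sham replicate 2.

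Of 16171 genes tested, 2215 were higher and 2208 lower after Glenn surgery (edgeR quasi-likelihood test with a term for the series, Benjamini-Hochberg adjusted p under 0.05), which is 27.4% of the genes tested and 13.7% in each direction. The median log2 change of all genes tested was -0.01. Changes of at least 2-fold were found in 889 higher genes (5.50%) and 392 lower genes (2.42%). The 5 Glenn libraries did not overlap the 5 sham libraries for 3173 genes (19.6%). These shares are the background against which the counts of gene groups below are read. The groups were chosen with earlier results of these data known, and no group was tested as a set. "Rose" and "fell" are used for genes past the threshold, a lone number in brackets after a gene is its log2 change, and values by library are listed in replicate order, sham libraries first.

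Among the genes that rose most was Vash1 (ENSRNOG00000010457), which encodes vasohibin 1, an endothelial protein that removes tyrosine from tubulin and restrains vessel growth. Vash1 stood at 16.9, 12.9, 18.05, 14.8 and 18.3 CPM in sham replicates 1 to 5 and at 139, 256, 252, 243 and 264 CPM in Glenn replicates 1 to 5 (log2 change 3.88, SE 0.17, adjusted p 5.49e-15). All Glenn libraries were far above all sham libraries, and Glenn replicate 1 was the lowest of them. Prnd (ENSRNOG00000021260), which encodes doppel, a relative of the prion protein, was close to absent after sham, with 0.155, 0.437, 0.565, 1.25 and 1.01 CPM, and stood at 37.4, 62.5, 52.5, 35.2 and 41.1 CPM after Glenn surgery (log2 change 6.04, SE 0.36, adjusted p 2.79e-12). Igfbp3 (ENSRNOG00000061910), a secreted binding protein of insulin-like growth factors, went from 8.400, 11.2, 4.99, 23.6 and 8.77 CPM to 309, 505, 384, 679 and 671 CPM (log2 change 5.54, SE 0.53, adjusted p 1.56e-08). The groups did not overlap for either gene, and Igfbp3 was lowest in Glenn replicate 1. Other genes with large rises from a low sham level were Tacr1, the substance P receptor (from 0.667 ± 0.294 to 15.8 ± 2.96 CPM), Gpr176 (from 1.24 ± 0.637 to 16.8 ± 8.97 CPM), Rdh12, a retinol dehydrogenase (from 0.884 ± 0.267 to 12.3 ± 4.28 CPM), and Spp1, which encodes osteopontin (from 0.608 ± 0.512 to 10.5 ± 8.97 CPM; SD, n = 5 each). Clic2, an intracellular channel protein, rose by 2.66 on the log2 scale, the small GTPase Rnd3 by 1.79, the magnesium transporter Slc41a1 by 1.501 and Rab11fip5 by 1.704.

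Among the genes that fell most was Serpina1 (ENSRNOG00000032669), which encodes the elastase inhibitor alpha-1 antitrypsin. Serpina1 stood at 162, 140.3, 149.9, 93.4 and 95.9 CPM in the sham libraries and at 7.83, 3.99, 5.34, 8.63 and 8.95 CPM in the Glenn libraries (log2 change -4.22, SE 0.24, adjusted p 1.01e-12). Glp1r (ENSRNOG00000001152), the receptor for glucagon-like peptide 1, fell from 496, 373, 353, 475 and 258 CPM to 36.4, 24.7, 44.4, 27.3 and 57.8 CPM (log2 change -3.38, SE 0.26, adjusted p 1.86e-10). Fmo1 (ENSRNOG00000034191), a flavin monooxygenase, fell from 834, 890.5, 1151, 873 and 814 CPM to 182, 119, 144, 149 and 128 CPM (log2 change -2.69, SE 0.17, adjusted p 4.41e-12). In each of these 3 genes the highest Glenn library was below the lowest sham library. Fmo1 was highest in sham replicate 3. Also lower were the potassium channel gene Kcnk2 (from 19.4 ± 5.899 to 2.198 ± 0.524 CPM), Dlk1 (from 26.7 ± 10.5 to 2.76 ± 0.23 CPM), the interleukin gene Il1a (from 87.6 ± 35.1 to 9.76 ± 4.84 CPM) and Cd300lg (from 39.8 ± 16.7 to 5.44 ± 3.25 CPM; SD, n = 5 each). Wnt5b, Abhd15, Rasgef1a, Pxdc1 and Mmp16 changed by -2.86, -3.62, -2.22, -2.17 and -1.35 on the log2 scale.

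**Figure D1:**
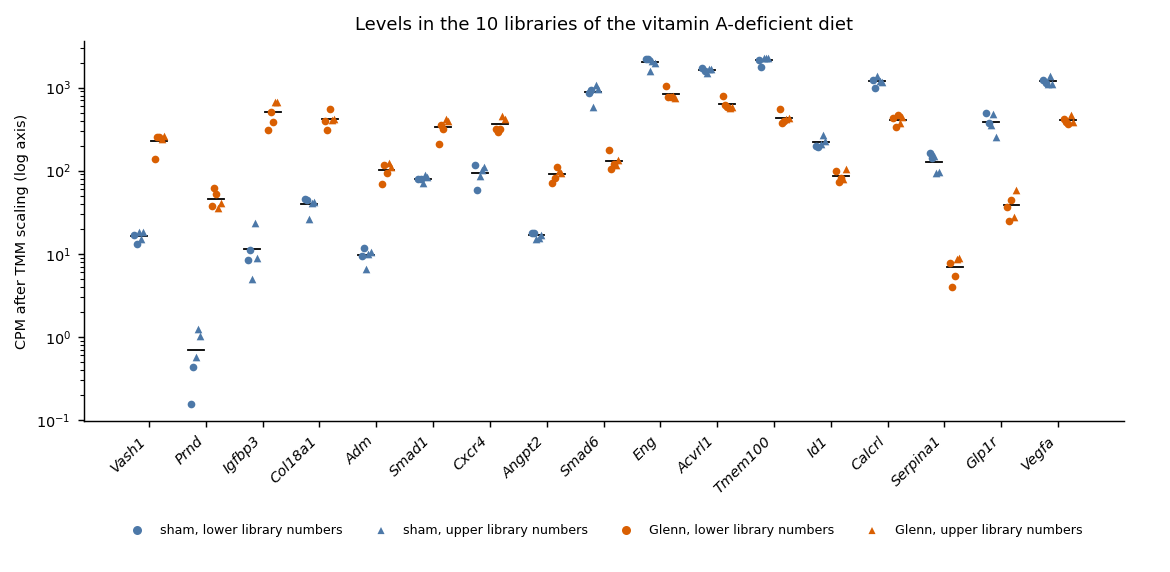
Levels of 17 genes in the 10 libraries on the vitamin A-deficient diet, in CPM after TMM scaling on a log axis; blue marks are sham and orange marks Glenn libraries, circles series A (lower library numbers) and triangles series B, and bars the group means. For each gene shown the 5 Glenn libraries lie on one side of the 5 sham libraries, for example Vash1 at 12.9 to 18.3 CPM after sham and 139 to 264 CPM after Glenn surgery.

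ALK1, endoglin and 2 partners of the BMP9 pathway were lower after Glenn surgery. Of 8 receptor and co-receptor genes tested, 4 fell and 0 rose, with a median log2 change of -0.77. Acvrl1 (ENSRNOG00000028713), the ALK1 gene, stood at 1728, 1599.9, 1484, 1659 and 1663 CPM in sham and 795, 611, 592, 562 and 589.6 CPM in Glenn replicates (log2 change -1.43, SE 0.12, adjusted p 4.17e-10). Eng (ENSRNOG00000050190) stood at 2200.04, 2234, 1599, 2109.7 and 1999 CPM and 1048, 782, 762, 801 and 756 CPM (log2 change -1.35, SE 0.12, adjusted p 1.17e-09). Glenn replicate 1 was the highest Glenn library for both, and it was still below every sham library. Bmpr2 (ENSRNOG00000022196), the type II receptor mutated in heritable pulmonary hypertension, went from 666, 591, 621, 616 and 568 CPM to 278, 216, 248, 257 and 253 CPM (log2 change -1.300, SE 0.102, adjusted p 8.74e-11). Tmem100 (ENSRNOG00000002434), a membrane protein that endothelial cells make under BMP9 and that acts in the same pathway, went from 2131, 1793, 2265, 2273 and 2266 CPM to 547, 378, 402, 415 and 428 CPM (log2 change -2.33, SE 0.18, adjusted p 1.05e-10). The groups stood clear of each other for both genes. The type II activin receptors Acvr2a (-0.19) and Acvr2b (-0.23), Tgfbr3 (-0.24) and Bmpr1a (0.34) did not pass the threshold. With sham replicate 2 left out, 1 receptor gene rose.

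The SMADs that carry the signal did not move together. Smad1 (ENSRNOG00000018483) rose, from 78.8, 78.3, 71.7, 87.5 and 82.9 CPM to 211, 353, 315, 418 and 400.03 CPM (log2 change 2.12, SE 0.11, adjusted p 6.20e-14), with no overlap. Smad9 fell from 53.1 ± 11.8 to 27.7 ± 3.73 CPM (log2 change -0.82), Smad5 rose slightly (0.27), and the common partner Smad4 did not pass the threshold (-0.15). Of 11 tested targets and feedback inhibitors of BMP signalling, 5 fell and 0 rose (median -0.22). Smad6 (ENSRNOG00000009173), an inhibitory SMAD that BMP signals induce, stood at 856, 942, 589, 1064 and 954 CPM in the sham libraries and 179, 105, 121, 116 and 134 CPM in the Glenn libraries (log2 change -2.82, SE 0.19, adjusted p 1.07e-11). Id1 (ENSRNOG00000021750), which encodes an inhibitor of bHLH transcription factors, stood at 198, 191, 207, 267 and 229 CPM and 98.6, 72.8, 80.9, 79.3 and 104 CPM (log2 change -1.302, SE 0.11, adjusted p 5.79e-10). Every Glenn library was below every sham library for both genes. The other inhibitory SMAD gene, Smad7, changed by -1.41, and Id3 and Id2 by -0.64 and -0.26. Id2 was no longer past the threshold without sham replicate 1, 3 or 5 or Glenn replicate 2 or 4 (adjusted p 0.0647 to 0.154), and without Glenn replicate 3 or 4 or sham replicate 4 up to 2 of the targets rose. The other 6 did not pass the threshold, with log2 changes from -0.22 (Bambi) to 0.64 (Bmper). Among 18 BMP and activin ligands and antagonists, 3 rose and 5 fell, with Bmp6 lower (from 346 ± 43.8 to 206 ± 24.8 CPM) and the BMP inhibitor Nog lower (from 3.48 ± 0.664 to 1.21 ± 0.45 CPM), while Inhba, an activin subunit gene, was higher (from 0.298 ± 0.167 to 2.08 ± 1.45 CPM; SD, n = 5 each). Of 14 TGF-beta genes 8 rose and 0 fell, among them the receptor Tgfbr2 (0.68), the SMAD of that branch Smad3 (0.87) and Lrrc32, which holds latent TGF-beta at the cell surface (0.89).

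**Figure D2:**
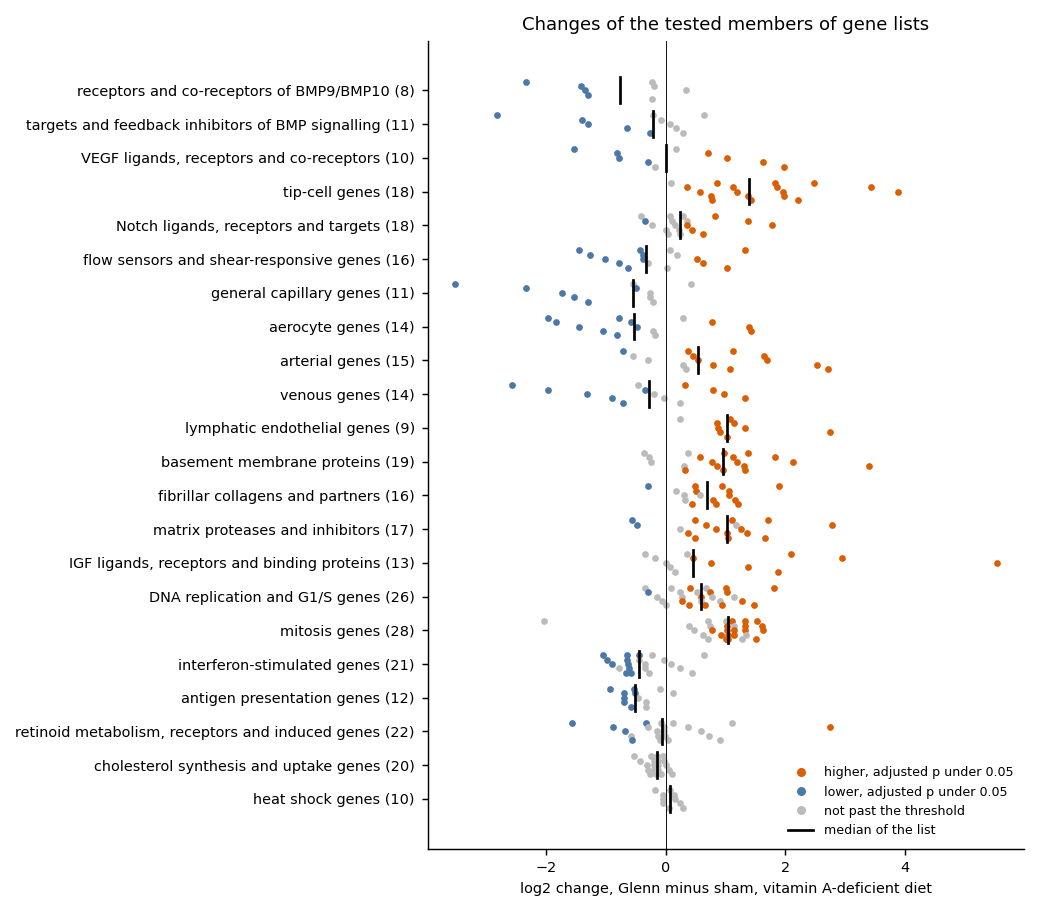
Log2 change, Glenn minus sham, of each tested member of 22 gene lists (1 point per gene, number tested in brackets); orange points rose, blue points fell and grey points did not pass an adjusted p of 0.05, and black bars are list medians. Tip-cell and basement membrane genes sit to the right of 0 (medians 1.398 and 0.96), BMP9 receptors and general capillary genes to the left (medians -0.77 and -0.54), and cholesterol genes around 0 (-0.15).

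Genes on a list for endothelial tip cells, the cells that lead a sprouting vessel, rose almost throughout. The list was chosen with earlier results of these data known. It leaves out the VEGF receptor Kdr and the co-receptor Nrp1, which fell and are given below. Of 18 tested (20 listed), 17 rose and 0 fell, with a median log2 change of 1.398, against 13.7% of all genes tested that rose, and 5 of the list's genes, Nid1, Nid2, Col4a1, Col4a2 and Lama4, encode basement membrane proteins. Adm (ENSRNOG00000027030), which encodes the vasodilator peptide adrenomedullin, stood at 9.28, 11.7, 6.47, 10.1 and 10.5 CPM in the sham group and 69.04, 117, 92.8, 122 and 112 CPM in the Glenn group (log2 change 3.42, SE 0.201, adjusted p 1.08e-12). Esm1 (ENSRNOG00000010797), a proteoglycan that tip cells secrete, went from 41.7, 53.1, 34.1, 52.4 and 55.3 CPM to 239, 138, 255, 249.6 and 218 CPM (log2 change 2.204, SE 0.302, adjusted p 3.27e-06). Cxcr4 (ENSRNOG00000003866), the receptor for the chemokine Cxcl12, went from 119, 59.3, 85.6, 101 and 109 CPM to 318, 292, 316, 462 and 415 CPM (log2 change 1.96, SE 0.18, adjusted p 2.18e-09). The lowest Glenn library was above the highest sham library in all 3. Angpt2 (ENSRNOG00000016696), a ligand that loosens contacts between endothelium and pericytes, went from 17.7, 17.9, 15.2, 15.5 and 16.7 CPM to 70.9, 81.9, 112, 99.00 and 94.9 CPM (log2 change 2.48, SE 0.15, adjusted p 1.88e-12), also with no overlap. The peptide gene Apln rose by 1.42 and the surface sialomucin Cd34 by 1.86, and the netrin receptor Unc5b by 0.76. Mcam was the tested member that did not pass the threshold (0.09).

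The VEGF system changed in both directions, with 4 of 10 tested genes higher and 4 lower. Vegfa (ENSRNOG00000019598), the main endothelial growth factor, stood at 1223, 1139, 1103, 1377 and 1096 CPM in the sham libraries and 423, 386, 362, 467 and 387 CPM in the Glenn libraries (log2 change -1.53, SE 0.11, adjusted p 1.51e-11), with no overlap. Its receptor Kdr fell (from 1348 ± 235 to 759 ± 59.5 CPM; log2 change -0.79, SE 0.14, adjusted p 5.95e-05), and so did the co-receptor Nrp1 (-0.81) and the decoy receptor Flt1 (-0.31). The lymphatic receptor Flt4 (1.01), its co-receptor Nrp2 (0.705) and the ligands Pgf (1.98) and Vegfd (1.62) rose. The call of Flt1 was lost without any one of Glenn replicates 1 to 5 or sham replicate 4 or 5 (adjusted p 0.0551 to 0.11), and that of Vegfd without sham replicate 1, 2 or 3 or Glenn replicate 2 (0.0674 to 0.12). Of 9 angiopoietin and Tie genes, 5 rose and 1 fell; the one that fell was the angiopoietin receptor Tek (-0.52). Without sham replicate 1 the count that rose was 3, and without sham replicate 3 or Glenn replicate 4 the count that fell was 2. In the Notch pathway 6 of 18 genes rose and 1 fell (0 without sham replicate 1 or 4 or Glenn replicate 2, 3 or 5), led by Notch3 (1.77) and Heyl (1.38). Both are also made by pericytes and smooth muscle cells, whose 12 tested markers stood at a sum of 286 to 336 CPM in the sham and 658 to 1890.5 CPM in the Glenn libraries; their part in these rises was not tested.

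More genes that sense or answer blood flow fell than rose. Of 16 tested, 8 fell and 4 rose (median -0.34). Klf2 (ENSRNOG00000067705), a transcription factor that laminar flow induces, stood at 1169, 1309.8, 1133, 1411 and 1649 CPM in sham and 655, 642, 628, 591 and 763 CPM in Glenn replicates (log2 change -1.02, SE 0.14, adjusted p 1.06e-06). Thbd (ENSRNOG00000004687), the anticoagulant receptor thrombomodulin and a target of that factor, went from 3758, 3329, 3461, 4003 and 3627 CPM to 1576, 1509.5, 1266, 1155 and 1373 CPM (log2 change -1.45, SE 0.14, adjusted p 2.43e-09). Groups did not overlap for either. Nos3 (ENSRNOG00000009348), which makes nitric oxide in endothelium and is also a flow-induced gene, moved the other way, from 95.5, 63.6, 66.6, 95.7 and 87.3 CPM to 177, 180.2, 196, 130.3 and 165 CPM (log2 change 1.02, SE 0.15, adjusted p 9.58e-06). The channel genes Piezo2 and Trpv4 changed by -1.27 and 1.32, and Klf4 by -0.63.

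Several systems that set vascular tone shifted. Ace (ENSRNOG00000062101), the enzyme that makes angiotensin II on lung capillaries, stood at 4049, 4007, 3614, 5137 and 4108 CPM in the sham libraries and 2374, 2106, 2061, 1937 and 2031 CPM in the Glenn libraries (log2 change -1.03, SE 0.11, adjusted p 3.66e-08). Edn1 (ENSRNOG00000014361), the endothelin gene, stood at 406, 704, 375, 322 and 415 CPM and 253, 249, 248, 170.2 and 197 CPM (log2 change -1.08, SE 0.13, adjusted p 1.83e-07), with sham replicate 2 well above the rest. In both genes all Glenn libraries were below all sham libraries. Of the endothelin receptors, Ednrb fell (-1.06) and Ednra, the receptor of smooth muscle, rose (1.09). Nos2 (ENSRNOG00000057443), the inducible nitric oxide synthase, rose from 3.88, 5.42, 2.95, 1.66 and 3.48 CPM to 15.2, 35.7, 34.4, 39.9 and 36.6 CPM (log2 change 3.23, SE 0.298, adjusted p 3.70e-09), and Glenn replicate 1 had the least of the Glenn libraries. Calcrl (ENSRNOG00000054695), the receptor through which adrenomedullin acts, fell from 1251, 987, 1396, 1195 and 1164 CPM to 426, 336, 469.5, 379 and 437 CPM (log2 change -1.55, SE 0.13, adjusted p 1.84e-10), and its partner Ramp2 fell too (-0.78), while the ligand Adm and another partner, Ramp1 (2.27), rose. Of 11 prostanoid genes 4 fell and 3 rose. The prostaglandin transporter Slco2a1 (-1.69) and the degrading enzyme Hpgd (-1.61) fell, and Ptgs2 (1.08) and the receptor Ptger4 (2.16) rose. Among the sphingosine-1-phosphate genes S1pr3 rose (1.92) and the exporter Spns2 fell (-0.74).

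More capillary genes fell than rose, and more arterial and lymphatic genes rose than fell. In a bulk library, fewer cells of a type and less RNA per cell cannot be told apart. Of 11 genes of general capillary cells, 6 fell and 0 rose (median -0.54). Plvap (ENSRNOG00000017676), which forms the diaphragms of capillary pores and caveolae, stood at 5606, 5049, 3407, 4825 and 4707 CPM in the sham group and 2058, 1405, 1257, 1398 and 1386 CPM in the Glenn group (log2 change -1.73, SE 0.16, adjusted p 2.18e-09), and Ntrk2 (ENSRNOG00000018839), a neurotrophin receptor gene, at 17.8, 15.8, 33.2, 22.7 and 24.7 CPM and 0.928, 2.04, 1.83, 1.56 and 2.21 CPM (log2 change -3.53, SE 0.41, adjusted p 2.33e-07). Neither gene had overlapping groups. Other members of that list differed: Sema3c changed by -1.54 and Kit by -0.501, while Aplnr (-0.21) and Gpihbp1 (0.42) did not pass the threshold. Of 14 genes of aerocytes, the capillary cells of gas exchange, 8 fell and 3 rose. Car4 (ENSRNOG00000002916), their membrane carbonic anhydrase, went from 389.9, 340.2, 492, 327 and 485 CPM to 105, 108, 77.8, 137 and 129 CPM (log2 change -1.84, SE 0.16, adjusted p 1.45e-09), with every Glenn library below every sham library, and Prx (-1.97) and the transcription factor Tbx2 (-1.44) fell as well. Apln (1.42), Chst1 (1.39) and Cyp4b1 (0.77), from the same aerocyte list, rose.

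Of 15 arterial genes 10 rose and 1 fell (median 0.54). Cdh13 (ENSRNOG00000014371), which encodes the cell-surface protein T-cadherin, went from 33.5, 32.1, 24.3, 28.8 and 45.8 CPM to 203, 165, 289, 195 and 211 CPM (log2 change 2.71, SE 0.24, adjusted p 3.01e-09), with no overlap. The Wnt modulator Dkk2 (2.53), the elastic fibre gene Fbln5 (1.68) and Mgp (1.64) rose, the transcription factor Sox17 rose less (0.37), and Efnb2, which marks arteries against veins, fell (-0.71). Without sham replicate 2 or Glenn replicate 3 the count of arterial genes that fell was 2. Mgp, Fbln5 and Eln are also made by smooth muscle cells and fibroblasts, whose markers are given further on. Venous genes were divided, with 4 of 14 higher and 6 lower; Amigo2 (-2.57) and Bst1 (-1.96) fell, and Selp rose (0.97). Of 9 tested lymphatic genes 8 rose and 0 fell (median 1.01), with Prox1, the transcription factor that sets lymphatic identity, moving from 5.27 ± 1.97 to 11.3 ± 3.21 CPM and the chemokine gene Ccl21 from 789 ± 223 to 2115 ± 898 CPM (SD, n = 5 each).

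Of the 17 general endothelial genes 7 fell and 4 rose (median -0.21), of 14 junction genes 6 fell and 3 rose (median -0.18), and of 8 adhesion genes 3 fell and 2 rose (median -0.33). The tight junction gene Cldn5 (-0.51), the adhesion molecule Esam (-0.78), and Icam2 (-0.91), a ligand of leukocyte integrins, fell. The sialomucin gene Cd34 (1.86) and the beta-catenin gene Ctnnb1 (0.44) rose. Gja1, a gap junction protein, rose (from 191 ± 31.6 to 464 ± 56.3 CPM). Of 16 clotting and fibrinolysis genes 6 rose and 5 fell: the anticoagulants Thbd (-1.45) and Tfpi (-0.92) fell, and the protease Plau (0.71) rose. Lpl, which frees fatty acids from circulating lipoproteins, fell (from 581 ± 125 to 193 ± 55.04 CPM), whereas Fabp4 (1.64) and Meox2 (1.06), both tied to fatty acid uptake by capillaries, rose. Of 23 endothelial transcription factors 9 fell and 7 rose. Foxf1, needed for lung capillary development, fell (from 1091 ± 167 to 551 ± 63.3 CPM), as did Gata2 (-1.05) and Tbx3 (-1.27), and Erg (0.58), Mef2c (0.78) and Foxc1 (1.07) rose (SD, n = 5 each).

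Most genes of the basement membrane, the sheet of matrix on which endothelium sits, rose. Of 19 tested, 14 rose and 0 fell (median 0.96), and apart from Lamb2 their Glenn and sham libraries did not overlap. Without sham replicate 3 or Glenn replicate 4 the count that fell was 1. Col18a1 (ENSRNOG00000001229), whose product releases the fragment endostatin, stood at 44.97, 44.7, 26.2, 40.6 and 41.4 CPM in sham and 394, 310.5, 558, 402 and 422 CPM in Glenn replicates (log2 change 3.400, SE 0.28, adjusted p 5.79e-10). The perlecan gene Hspg2 rose by 2.13, the laminins Lama4 and Lamc1 by 1.38 and 1.33, the nidogens Nid2 and Nid1 by 1.82 and 1.18 and the main collagen chains Col4a1 and Col4a2 by 1.12 and 0.86. The alveolar chains Col4a3 (-0.37) and Col4a4 (0.36) did not pass the threshold. Of 16 genes of fibrillar matrix 11 rose and 1 fell (0 fell without sham replicate 1 or Glenn replicate 2 or 4), with fibronectin Fn1 (1.89), the crosslinking enzyme Lox (1.199) and fibrillin Fbn1 (1.16) higher. Matrix proteases and their inhibitors rose in 13 of 17 and fell in 2, among them Adamts4 (2.78), Mmp2 (1.66), Mmp14 (1.03) and Timp3 (1.36). Of 14 integrin genes 4 rose and 2 fell (median 0.04): among them Itga4 (1.85) and Itga8 (1.37) rose and Itga3 (-0.48) fell.

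These matrix genes are shared with mural cells and fibroblasts, and markers of mural cells rose with them. Of 12 tested mural markers 11 rose and 0 fell (median 1.66). Myh11 (ENSRNOG00000057880), the smooth muscle myosin, stood at 58.4, 73.4, 70.7, 50.5 and 63.6 CPM in the sham libraries and 256, 179.7, 609, 175 and 232 CPM in the Glenn libraries (log2 change 2.15, SE 0.31, adjusted p 6.64e-06), and Glenn replicate 3 was highest by far. The contractile genes Acta2 (2.04), Tagln (1.97) and Cnn1 (2.24) and the pericyte genes Cspg4 (1.98), Pdgfrb (1.07) and Kcnj8 (1.44) rose. Of 10 fibroblast markers 4 rose and 0 fell (median 0.92), and their sum was 2145 to 3436 CPM after sham and 3372 to 4888 CPM after Glenn surgery. Without sham replicate 1 the count of fibroblast markers that rose was 1, and without sham replicate 2 or 3 or Glenn replicate 2 it was 2. The part of these cells in the rise of matrix genes was not tested.

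Growth factor and guidance genes followed no single direction. Among 13 genes of the insulin-like growth factor system 7 rose and 0 fell; beside Igfbp3 these were led by Igfbp4 (from 58.8 ± 11.6 to 433 ± 50.8 CPM), Igf2 (from 3.59 ± 1.04 to 16.1 ± 8.88 CPM) and Igf1 (from 4.24 ± 0.651 to 16.1 ± 6.42 CPM; SD, n = 5 each). Pdgfa (0.91) rose and Pdgfd (-1.03) fell. Of 26 guidance genes 10 rose and 7 fell: Ephb1 (2.901), Sema3a (1.74) and the endothelial receptor Robo4 (0.96) were higher, and Sema3c (-1.54), Sema3g (-1.297) and Efnb1 (-1.16) lower. Of 26 Wnt genes 8 rose and 7 fell. The pathway's own feedback genes Axin2 (-0.85) and Nkd1 (-0.69) were lower, as were the receptors Fzd4 (-0.51) and Fzd8 (-0.89). Wnt4 (1.38) and the inhibitor Sfrp2 (1.66) rose. The hyaluronidase Hyal2 fell (from 321 ± 63.1 to 115 ± 11.4 CPM), and so did its neighbours Hyal3 (-1.74) and Hyal1 (-1.12), whose reads may be shared where transcripts overlap.

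Many cell cycle genes were higher after Glenn surgery, from low levels. Of 28 mitosis genes 17 rose and 0 fell (median 1.04), and of 26 genes of DNA replication and entry into S phase 12 rose and 1 fell (median 0.59); the count that fell was 0 to 2 with single libraries left out. Top2a (ENSRNOG00000053047), the topoisomerase of dividing cells, stood at 4.39, 1.63, 7.03, 3.61 and 4.62 CPM in the sham libraries and 5.57, 19.6, 20.3, 8.27 and 6.297 CPM in the Glenn libraries (log2 change 1.502, SE 0.49, adjusted p 0.022). Tpx2 (ENSRNOG00000008165), a spindle assembly factor, stood at 2.64, 2.24, 4.39, 2.79 and 2.83 CPM and 5.85, 13.4, 15.2, 4.65 and 5.56 CPM (log2 change 1.53, SE 0.44, adjusted p 0.00983). Glenn replicates 2 and 3, both of series A, were the highest for both genes, and the groups overlapped for Top2a but not for Tpx2. Mki67 (ENSRNOG00000028137), the proliferation marker, stood at 10.1, 4.87, 7.82, 4.86 and 6.64 CPM and 10.3, 15.05, 18.4, 10.7 and 6.82 CPM and did not pass the threshold (log2 change 0.74, SE 0.31, adjusted p 0.0815). Mki67 did pass it in DESeq2 (adjusted p 0.0436), with no series term (0.0456), with a replicate block (0.02) and without Glenn replicate 5 (0.0489). The mitosis genes summed to 71.1 to 134 CPM after sham and 127 to 304 CPM after Glenn surgery. Their median log2 change was 1.52 in series A alone and 0.45 in series B alone, and the count that rose was 7 without sham replicate 2, 8 without Glenn replicate 3, 9 without Glenn replicate 2, and 11 without sham replicate 1 or 4. Top2a was no longer past the threshold without sham replicate 1 or 2 or Glenn replicate 2 or 3 (adjusted p 0.0549 to 0.0938), nor was Cdk1 without any one of sham replicates 2, 4 and 5 and Glenn replicates 2, 3 and 4 (0.0587 to 0.112). Among the replication genes, Mcm6 (ENSRNOG00000003703), a subunit of the replicative helicase, stood at 23.2, 20.6, 25.05, 18.5 and 21.4 CPM and 32.6, 46.1, 47.7, 42.1 and 39.3 CPM (log2 change 0.94, SE 0.12, adjusted p 4.99e-07), and Pola1, a catalytic subunit of DNA polymerase alpha, rose from 12.9 ± 0.581 to 25.5 ± 4.12 CPM (log2 change 0.998, SE 0.13, adjusted p 1.10e-06; mean ± SD over 5 libraries), both without overlap. 1 mitosis gene stood the other way and was chosen after its values were seen: Foxm1, a transcription factor of mitotic genes, had 2.56, 1.49, 2.51, 1.804 and 1.57 CPM in the sham and 0.904, 0.255, 0.59, 0.911 and 0 CPM in the Glenn libraries, all Glenn libraries below the sham libraries (log2 change -2.04, SE 0.83, adjusted p 0.0683). It did not pass the threshold with all libraries, and it fell without Glenn replicate 4 (log2 change -2.89, adjusted p 0.033). Ccnd2 rose (1.27) and the CDK inhibitor Cdkn1b fell (-0.33).

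The promoters of 6 of these cell cycle genes are shown because such genes share short motifs just before their starts. The sequences are the 250 bases before the RefSeq gene start in build GRCr8, read 5′ to 3′ on the gene's own strand, and the counts themselves were made on build mRatBN7.2. In the first 3, all mitosis genes that rose, capitals mark TTTGAA, the core of the cell cycle homology region, and CCAAT, the box bound by NF-Y, on either strand; these motifs do not overlap each other in the windows shown.
Cdk1, chr20:19265043-19265292 (+ strand)
Cdk1: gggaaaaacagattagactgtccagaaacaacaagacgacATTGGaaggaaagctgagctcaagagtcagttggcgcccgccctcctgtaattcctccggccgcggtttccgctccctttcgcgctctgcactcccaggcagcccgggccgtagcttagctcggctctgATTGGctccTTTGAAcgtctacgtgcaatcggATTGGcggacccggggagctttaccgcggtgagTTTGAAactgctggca
Top2a, chr10:84473094-84473343 (- strand)
Top2a: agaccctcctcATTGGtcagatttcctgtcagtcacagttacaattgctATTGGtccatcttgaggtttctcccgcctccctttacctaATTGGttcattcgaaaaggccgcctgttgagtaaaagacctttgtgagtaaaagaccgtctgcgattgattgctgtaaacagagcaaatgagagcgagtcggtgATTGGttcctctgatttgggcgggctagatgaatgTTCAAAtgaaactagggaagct
Birc5, chr10:103571896-103572145 (+ strand)
Birc5: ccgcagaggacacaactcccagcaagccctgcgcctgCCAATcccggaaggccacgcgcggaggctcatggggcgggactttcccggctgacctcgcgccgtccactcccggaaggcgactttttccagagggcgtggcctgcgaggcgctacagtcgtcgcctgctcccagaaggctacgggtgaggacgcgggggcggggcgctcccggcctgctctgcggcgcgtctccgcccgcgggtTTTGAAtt
In the next 3, replication genes that rose, capitals mark TTTNGCGC, a form of the site bound by E2F factors, on either strand; a match on one strand can overlap a match on the other, as it does in Mcm6 and Mcm5.
Mcm6, chr13:42404353-42404602 (- strand)
Mcm6: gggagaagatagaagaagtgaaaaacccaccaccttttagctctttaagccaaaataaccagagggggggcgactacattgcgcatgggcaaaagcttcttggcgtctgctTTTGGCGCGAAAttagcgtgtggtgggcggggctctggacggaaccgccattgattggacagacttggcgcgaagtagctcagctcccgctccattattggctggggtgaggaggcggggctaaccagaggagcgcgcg
Mcm5, chr19:13488563-13488812 (+ strand)
Mcm5: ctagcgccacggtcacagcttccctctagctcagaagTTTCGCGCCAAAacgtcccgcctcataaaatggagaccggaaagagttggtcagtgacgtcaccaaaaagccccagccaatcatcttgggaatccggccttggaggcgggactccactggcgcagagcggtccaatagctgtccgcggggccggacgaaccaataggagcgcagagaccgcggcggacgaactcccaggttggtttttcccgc
Pola1, chrX:62342356-62342605 (- strand)
Pola1: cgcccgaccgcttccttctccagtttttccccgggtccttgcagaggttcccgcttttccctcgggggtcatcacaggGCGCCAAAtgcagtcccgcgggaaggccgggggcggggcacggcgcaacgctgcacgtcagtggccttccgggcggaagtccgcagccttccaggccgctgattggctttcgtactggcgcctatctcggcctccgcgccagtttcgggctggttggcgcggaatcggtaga
A promoter was found for 23 of the 28 mitosis genes, of which 10 (43.5%) held TTTGAA and 17 (73.9%) CCAAT within 250 bases, against 16% and 34.3% of 27456 promoters of the same length. Of 19 replication genes with a promoter, 7 (36.8%) held TTTNGCGC, against 1.11% of all promoters. The changes of the genes shown were 0.92 for Cdk1, 1.502 for Top2a, 1.604 for the survivin gene Birc5, 0.94 for Mcm6, 1.02 for Mcm5 and 0.998 for Pola1. A match describes the letters and does not show binding. Of 9 BMP target genes with a promoter, 4 held GGCGCC, a motif of BMP-activated SMADs (44.4%, against 9.24% of all promoters), and of these Smad7 fell and the other 3 did not pass the threshold.

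**Figure D3:**
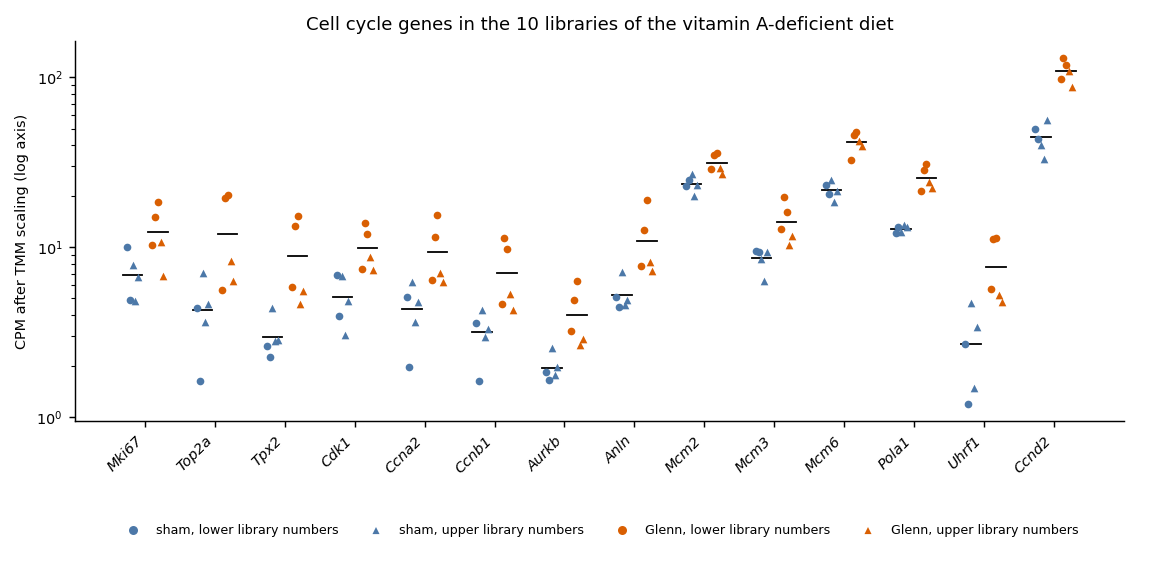
Levels of 14 cell cycle genes in the 10 libraries, in CPM after TMM scaling on a log axis, with colours, shapes and bars as in the plot of single-library levels. The mitosis genes on the left lie close to each other in the 2 groups or overlap, as for Top2a (1.63 to 7.03 CPM after sham, 5.57 to 20.3 CPM after Glenn surgery), while Mcm6 and Pola1 stand apart (18.5 to 25.05 CPM and 32.6 to 47.7 CPM for Mcm6).

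Interferon-stimulated genes were lower in part, with 10 of 21 past the threshold as lower and 0 as higher (median -0.45). Mx1 (ENSRNOG00000001959), an antiviral GTPase, stood at 134, 327, 92.3, 48.6 and 67.9 CPM in the sham libraries and 71.7, 111, 33.4, 60.6 and 44.4 CPM in the Glenn libraries (log2 change -1.05, SE 0.32, adjusted p 0.017), and Mx2 (ENSRNOG00000001963) at 347, 414, 268, 163 and 237 CPM and 169, 215, 105, 159 and 111 CPM (log2 change -0.98, SE 0.21, adjusted p 0.000949). The groups overlapped for both genes, and sham replicate 2 was the highest library. Without that library the count of interferon genes that fell was 5, that of genes that rose was 2 (also 2 without Glenn replicate 3), and Mx1 was no longer past the threshold (log2 change -0.60, adjusted p 0.152). Median changes were -0.84 in series A and -0.14 in series B. Of 12 antigen presentation genes 7 fell and 0 rose, among them Cd74 (-0.702), the invariant chain of class II, and the peptide transporter Tap1 (-0.698); read sharing among RT1 genes makes their own values uncertain.

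Type 2 alveolar markers fell in 10 of 10 cases (median -0.599), and 5 of 10 fell without sham replicate 2, when Sftpc was not past the threshold (adjusted p 0.0852). Sftpc (ENSRNOG00000011177) stood at 25533, 31968, 26403, 20544 and 21434 CPM in the sham group and 19706, 15062, 15388, 18660.2 and 16664 CPM in the Glenn group (log2 change -0.57, SE 0.18, adjusted p 0.0184), with sham replicate 2 highest and no overlap. Genes active in these cells moved the same way in part. The lysozyme gene Lyz2, which rodent type 2 cells and macrophages make, fell (from 18439 ± 3561 to 11104 ± 2081 CPM). Of 12 fatty acid synthesis genes 5 fell and 1 rose (0 rose without sham replicate 2 or 4 or Glenn replicate 1 or 2), led by the desaturase Fads1 (-1.596) and Acacb (-1.14). Their sums overlapped, at 1698 to 3662 CPM after sham and 1712 to 2169 CPM after Glenn surgery. Median changes of that list were -0.85 in series A and -0.27 in series B. The summed type 2 markers were 38490.4 to 59929.8 CPM in the sham and 27176 to 36238 CPM in the Glenn libraries, and their part in these falls and in those of Cd74 and the interferon genes was not tested. Markers of type 1 alveolar cells, the thin cells of the air-blood barrier, moved the other way, with 6 of 8 higher and 0 lower (1 lower without sham replicate 1). Ager (ENSRNOG00000000439) stood at 280.05, 454, 376, 299.7 and 364 CPM and 739, 733, 534, 1010.4 and 634 CPM (log2 change 1.07, SE 0.21, adjusted p 0.000249), again without overlap, and the water channel Aqp5 (1.12) and Rtkn2 (1.45) rose.

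Markers of blood cells other than macrophages and monocytes were low. B cell and neutrophil markers summed to at most 8.17 and 9.33 CPM in any library, and 1 of 5 tested B cell markers rose. T and NK cell markers summed to 3.09 to 19.6 CPM after sham and 4.83 to 10.7 CPM after Glenn surgery over 9 tested genes, the T cell genes Cd3e and Cd3d were below the count filter, and 0 of the 9 passed the threshold (edgeR; 0 at an unadjusted p under 0.05; DESeq2 0). The 6 genes of all leukocytes summed to 7.91 to 22.7 CPM and 7.51 to 20.9 CPM, with 0 past the threshold (edgeR; 1 at an unadjusted p under 0.05; 1 lower in DESeq2 and without Glenn replicate 4). Their median change was 1.67 in series A and -0.96 in series B. Of 7 platelet markers, which matter because platelets carry CD31, 1 fell (0 without Glenn replicate 3 or sham replicate 3, 2 without Glenn replicate 4) and 0 rose, and their sums were 40.2 to 99.1 CPM and 25.6 to 51.2 CPM. Of 11 macrophage markers 2 rose and 2 fell; Csf1r and Mrc1 rose (1.08 and 0.88) and Cd68 and Lyz2 fell (-0.63 and -0.75). The call of Cd68 was lost without sham replicate 1 or 5 or Glenn replicate 1 or 3 (adjusted p 0.0707 to 0.0838). The 11 macrophage markers, Lyz2 included, summed to 14060 to 22750 CPM after sham and 8094 to 13661 CPM after Glenn surgery. Of 4 tested red cell genes 2 rose and 0 fell, with log2 changes from -0.64 to 3.46. All 4 had an unadjusted p under 0.05 (edgeR). Red cell transcripts differed between libraries: Hba-a2 (ENSRNOG00000029886), an alpha globin gene with near-identical copies, stood at 3.75, 3.41, 2.45, 6.45 and 3.25 CPM in the sham libraries and 63.97, 189, 102, 9.09 and 3.91 CPM in the Glenn libraries (log2 change 2.91, SE 0.896, adjusted p 0.017). Glenn replicates 1 to 3, all of series A, were high and the other 2 lower, and the call was lost without sham replicate 1 or 2 (adjusted p 0.08 to 0.0835). Airway (7 tested) and mesothelial (5 tested) markers had 0 genes past the threshold (edgeR; 0 and 0 at an unadjusted p under 0.05; DESeq2 0).

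**Figure D4:**
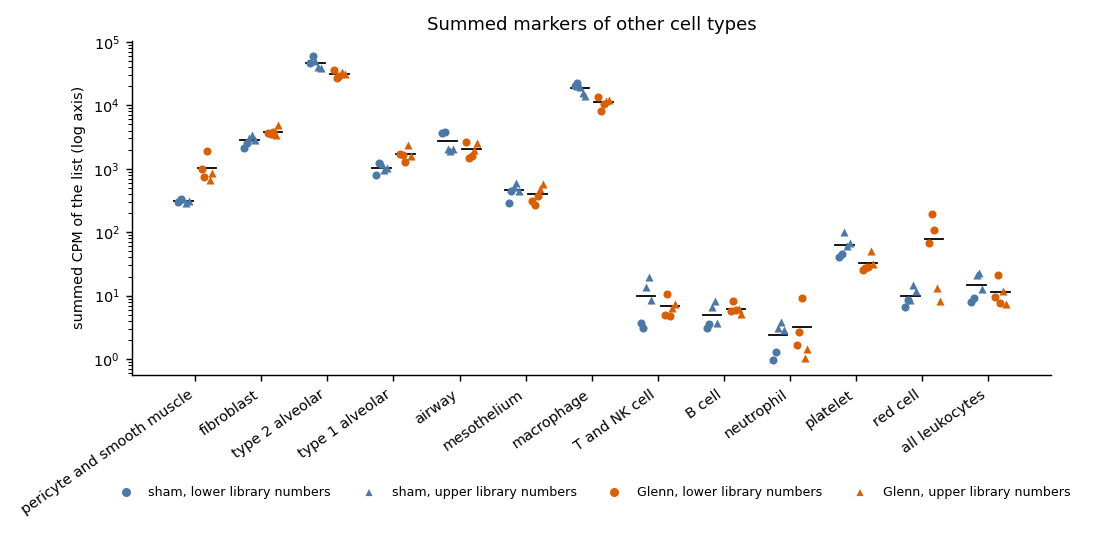
Summed CPM of the tested markers of 13 other cell types in the 10 libraries on a log axis, with colours, shapes and bars as in the plot of single-library levels. Mural markers are higher in all Glenn libraries (658 to 1890.5 CPM against 286 to 336 CPM), type 2 alveolar markers lower (27176 to 36238 CPM against 38490.4 to 59929.8 CPM), and T and NK cell markers are at most 19.6 CPM in any library.

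Both groups ate the deficient diet, so changes of retinoid genes between them do not measure an effect of diet. Of 22 retinoid genes tested (24 listed), 5 fell and 1 rose (median -0.06). That is 27.3% called, near the 27.4% of all genes tested, so the list as a whole does not stand out. The list leaves out the retinol dehydrogenase gene Rdh12, which rose and is given above. The count of list genes that rose was 3 without Glenn replicate 4, and 2 without sham replicate 2, 3, 4 or 5 or Glenn replicate 3. Cyp26b1 (ENSRNOG00000015076), the enzyme that breaks down retinoic acid and is itself induced by it, stood at 29.8, 82.7, 42.1, 43.3 and 33.7 CPM in the sham libraries and 16.2, 9.497, 21.8, 12.97 and 18.5 CPM in the Glenn libraries (log2 change -1.57, SE 0.36, adjusted p 0.00166). No Glenn library reached the lowest sham library, and sham replicate 2 was the highest. Dhrs3, which returns retinal to retinol, fell from 140.3 ± 13.8 to 77.8 ± 7.15 CPM (log2 change -0.88, SE 0.08, adjusted p 2.70e-09), and the receptors Rarb (-0.57), Rarg (-0.67) and Rara (-0.33) fell, the last not without Glenn replicate 5 or sham replicate 4 or 5 (adjusted p 0.0534 to 0.0672). Rbp7, a retinol-binding protein of endothelium, rose from a low level (from 0.279 ± 0.19 to 1.63 ± 0.63 CPM; SD, n = 5 each). The retinoic acid-making enzymes Aldh1a1 (-0.09), Aldh1a2 (-0.13) and Aldh1a3 (0.91) did not pass the threshold. Aldh1a3 did pass it as higher under several alternatives. Among these were DESeq2 (adjusted p 0.0326), voom (0.0247), the 10 libraries alone (0.0105) and the fit without sham replicate 4 (0.0282).

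Metabolic and stress lists differed in how many of their genes passed the test. The glycolysis list had 29.4% called, near the 27.4% of all genes tested. Of 17 tested glycolysis genes 4 rose and 1 fell, led by the glucose transporter Slc2a3 (from 2.08 ± 0.23 to 16.5 ± 3.18 CPM) and the glycolytic activator Pfkfb3 (from 27.5 ± 7.91 to 101 ± 23.6 CPM; SD, n = 5 each). Of 13 hypoxia-response genes 4 rose and 3 fell. The endothelial hypoxia factor Epas1 fell (-1.002) and Hif1a rose (0.61), and of their known targets Adm (3.42), Ndrg1 (1.31) and Egln3 (0.78) rose and Vegfa (-1.53) fell. In the cholesterol pathway 0 of 20 genes passed the threshold (edgeR; 1 at an unadjusted p under 0.05; DESeq2 0; median log2 change -0.15; 1 fell without Glenn replicate 5), and among heat shock genes 0 of 10 (edgeR; 1 at an unadjusted p under 0.05; DESeq2 0; median 0.06). Immediate early genes, which tissue dissociation also raises, rose in 6 of 15 and fell in 0, with Fosl2 (1.28), Nr4a2 (1.29) and Fos (0.51) higher.

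The response was compared between the library series, which share no library. In series A alone 2553 genes passed the threshold, and in series B alone 1969. Of these, 1177 were past the threshold in both, and 1176 of the 1177 had the same sign. Among 4405 genes called over all libraries and tested in both series, 4399 had the same sign in both; since those calls rest on the same libraries, this share is a description. A test of the difference between the series over the 10 libraries gave 0 of 15149 genes (0.00%; 1425 at an unadjusted p under 0.05; smallest adjusted p 0.0596), whereas DESeq2 called 170, voom 2 and edgeR 4, 11 and 1 without sham replicate 1, 3 and 5. The named genes nearest the threshold in that test were Erbb3, with a log2 change of -0.23 in series A and 1.20 in series B, and Prim1, a primase subunit, with -0.69 and 0.71. In both series Vash1 (3.86 and 3.89), Smad6 (-2.73 and -2.80), Eng (-1.35 and -1.29), Col18a1 (3.24 and 3.51) and Cyp26b1 (-1.83 and -1.34) changed in the direction of the whole comparison.

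**Figure D5:**
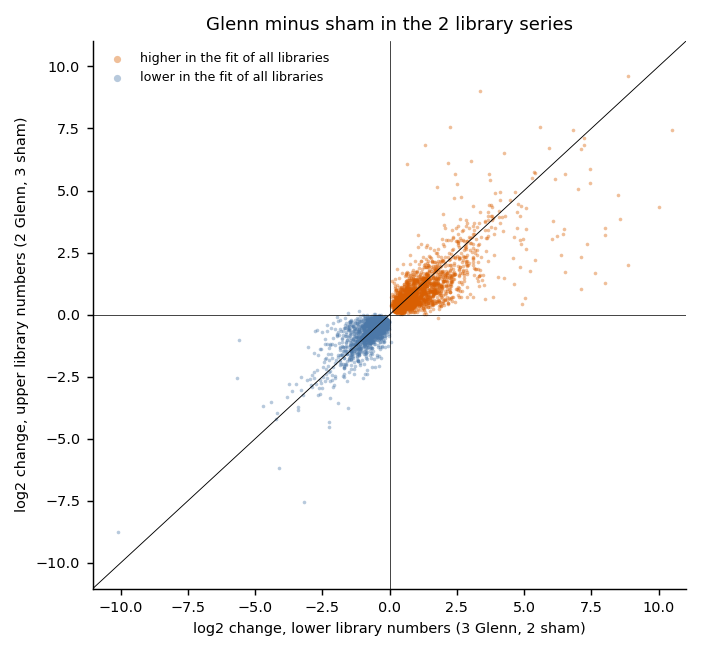
Log2 change, Glenn minus sham, in series A (x axis) and series B (y axis) for the genes past the threshold over all libraries, orange where higher and blue where lower after Glenn surgery; the diagonal marks equal changes. Points lie in the upper right and lower left fields for 4399 of the 4405 genes tested in both series.

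No gene passed the threshold in a test of whether the response on the deficient diet differed from the mean response on the other diets (edgeR, 0 of 16171, 0.00%; 515 at an unadjusted p under 0.05; smallest adjusted p 0.973; DESeq2 called 1). Those with the smallest p among the named genes were Xdh, which encodes xanthine dehydrogenase and changed by -0.08 on the deficient diet, -0.64 against the other diets, and Mmp11, which rose by 1.78, a difference of 0.99. None of the changes above is therefore shown to be particular to the deficient diet, and the missed threshold does not show that the diets acted alike. All control-diet and all sham excess-diet libraries were of series A, while Glenn excess-diet libraries came from both series. The test by diet therefore rests in part on the additive term for the series. In series A alone it also called 0 genes.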

How the data were processed

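Per the labels' protocols, RNA came from PureLink extraction, and a SMART-Seq Ultra Low v4 kit gave the libraries. FastQC, Trim Galore, STAR, Salmon and Picard and the build mRatBN7.2 (rn7) are named in the submitters' processing notes; the annotation release is not given in the sources used here. The deposited table holds the authors' estimated counts per gene (13.6% of values not whole), which were rounded. Of 30562 rows, 4380 have no symbol apart from their identifier, and 16171 passed the filter (filterByExpr, minimum count 10, minimum total 15). Library totals were 22.03 to 42.5 M counts in the 10 deficient-diet libraries and reached 77.6 M among all 30 libraries.

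edgeR 4.0.16 (R 4.3.3) fitted 6 group means over all 30 libraries with a term for the library series, TMM scaling and robust quasi-likelihood tests with Benjamini-Hochberg adjustment. Each SE was computed as |log2 change| over sqrt(F). Interaction contrasts tested the diets over all libraries and the series over the 10 libraries. Alternatives were limma 3.58.1 voom with quality weights, DESeq2 1.42.0, its size factors, no series term, each series alone, the 10 libraries alone, no filter, RT1-CE16 level, sex, a replicate block and each library left out. On simulated data made for the Glenn and sham comparison (15891 genes), edgeR recovered 100 of 100 genes changed 4-fold and 81 of 100 changed 2-fold, with 9 false calls. The simulated counts had no series effect, a spread set by abundance alone and few changed genes. These figures therefore do not measure recovery in the real libraries.

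The rule for naming took genes averaging 5 CPM or more: the 10 smallest p and the 8 largest changes without overlap in each direction, up to 5 called members of each list (or its most abundant member), the top 3 of each interaction, and 13 preset genes. Other list members named were chosen after their values were seen. The members and lists were chosen with earlier results of these data known. Promoters came from RefSeq (GRCr8), matched by symbol. Genes with near-identical copies (globins, RT1 genes) may share reads.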

Additional observations from a re-analysis of the deposited data

Results flagged for a closer look

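In 11 of 84 sets of 5 libraries, the highest or lowest library stood farther from its neighbour, as a share of the set's range, than Dixon's critical value of 0.71 for 5 samples. Chance alone would give about 4.2 if values were normally distributed, which was not tested for these CPM values. The sets share the same 10 libraries and are not independent, so 11 cannot be read against 4.2 as a test. Glenn replicate 1 was the library in 5 of them: highest of the Glenn libraries for Acvrl1 (0.79), Eng (0.846) and Plvap (0.815), and lowest for Vash1 (0.833) and Nos2 (0.776). In each of these genes that library was the Glenn library nearest to the sham level, and its group still did not overlap the sham group. Sham replicate 3 was lowest for Col18a1 (0.769) and highest for Fmo1 (0.774) and Tpx2 (0.727). Sham replicate 2 was highest for Cyp26b1 (0.746) and Edn1 (0.756). Glenn replicate 3 was highest for Myh11 (0.814), at 609 CPM.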

How the results depend on the processing

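The comparison gave 4423 genes, and 3676 to 4213 with single libraries left out; the count was 2553 in series A alone and 1969 in series B alone, where fewer libraries were tested. The test by series gave 0 genes, but 170 in DESeq2, 2 in voom, 9 with no filter on low counts, and 0 to 11 with single libraries left out. The test by diet gave 0 genes and 1 in DESeq2. Of 236 genes named, 212 were called. These 212 had the same sign under all 21 alternatives, 152 were called under all of them, and 202 with each library left out. Since the calls and the alternatives rest on the same libraries, these counts are a description. Under some alternatives, these uncalled genes passed the threshold: Aldh1a3, Bmper, Bmpr1a, Col4a4, Cxcl12, Erbb3, Foxm1, Gpihbp1, Mki67, Pecam1 and Prim1. Replicate numbers did not pair the libraries (correlations of same-numbered deviations -0.03 to 0.23), and a replicate block gave 4517 genes. The named genes that changed sign were not called: in series A alone Erbb3 (-0.23), Pecam1 (0.23), Prim1 (-0.69) and Ptprc (0.76); in series B alone Aldh1a1 (0.0244) and Aldh1a2 (0.0279); Ptprc in voom (0.00423) and with an RT1-CE16 term (0.0627); and Prim1 with no filter (-7.3e-05). With single libraries left out, log2 changes ranged over -0.22 to 0.0394 for Aldh1a1, -0.28 to 0.0678 for Aldh1a2, -0.13 to 0.20 for Prim1, -0.25 to 0.000141 for Smad4 and -0.16 to 0.0416 for Xdh. The cause was not tested. Whether depth bears on the calls of genes of a few CPM was not tested.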

Other observations

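Genes that turn over hyaluronan, the large sugar polymer of the vessel surface, also changed: of 10 tested, 2 rose and 4 fell. The hyaluronan-degrading protein gene Cemip moved from 0.177 ± 0.153 to 3.01 ± 1.25 CPM and the synthase gene Has3 from 0.222 ± 0.223 to 2.57 ± 0.544 CPM (mean ± SD, n = 5 each), whereas the receptor Cd44 fell by 0.42 on the log2 scale. Among 17 genes of the YAP pathway, which reads stretch and stiffness, 6 rose and 2 fell. Wwtr1, which encodes the coactivator TAZ, rose by 1.23, the receptor tyrosine kinase gene Axl by 1.36, and the known target genes Ankrd1 and Ccn2 by 1.41 and 0.84. Amotl2, from the same list, fell by 0.66. The other 9 of the 17 did not pass the threshold. Sums of the list overlapped, at 1174 to 1482 CPM after sham and 1306 to 2344 CPM after Glenn surgery. Of 9 chemokine genes 3 rose and 0 fell (1 fell without sham replicate 2 or Glenn replicate 3), with the monocyte attractant Ccl2 moving from 9.05 ± 2.85 to 25.01 ± 5.54 CPM (mean ± SD, n = 5 each). In the amino acid and stress response list, 3 of 14 rose and 2 fell: asparagine synthetase Asns fell by 0.92 and the mitochondrial folate enzyme Mthfd2 rose by 0.81. The chemokine list had 33.3% called and the amino acid list 35.7%, not far from the 27.4% of all genes tested.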
